A study of Mus musculus with 2 samples.

Results

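Mir219a-1, Mir219a-2 and Mir338 are the mouse genes of miR-219a and miR-338, the microRNAs best known for promoting oligodendrocyte differentiation. They were taken by gene name from the count tables of forebrain small RNA and make up 3 of the 1973 microRNA genes listed there. The tissue was forebrain of B6NCrl mouse embryos at embryonic day 13.5, labelled healthy with no treatment named, from males and females pooled. There were 2 libraries of RNA shorter than 30 nucleotides, biological replicates 1 and 2 of 1 group. The labels give both replicates separate biosamples and the same donor identifier. How far the spread between the replicates is biological or technical cannot be told from these labels. With 1 group there was no contrast between conditions, and values describe levels and the spread of the 2 libraries.

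MicroRNAs are cut from hairpin precursors, and their bases 2 to 8, the seed, pair with target messages and lower their output. In mouse, miR-219 and miR-338 rise as oligodendrocyte precursors leave the cell cycle and mature. There they repress genes that hold cells in the precursor state, among them Pdgfra and Sox6 for miR-219 and Sox6 and Hes5 for miR-338. In the mouse forebrain the first precursors are specified during embryonic life and myelin is made after birth. miR-219 is also known from neurons, including the circadian pacemaker of the hypothalamus, so the Mir219a genes do not mark oligodendrocytes alone. Whether Mir338 marks them alone was not tested here. The tables hold microRNA genes, and messages such as Olig2 or Pdgfra that mark the lineage were not analysed here.

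The mature sequences are shown first because they bear on which reads could be counted on which gene. They are RefSeq sequences on GRCm38.p6, written 5′ to 3′ with the seed in capitals.
miR-219a-5p, from both Mir219a genes: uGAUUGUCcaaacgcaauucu
miR-219a-1-3p, from Mir219a-1: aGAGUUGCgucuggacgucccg
miR-338-3p, from Mir338: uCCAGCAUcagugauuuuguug
miR-338-5p, from Mir338: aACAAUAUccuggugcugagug
Each of these 4 seeds belonged to 1 name among the 1679 mature mouse microRNA names in the RefSeq table, so the genes share no seed with any other listed microRNA. miR-219a-5p and miR-338-3p are the forms usually studied in oligodendrocytes.

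The hairpins are shown next, with the mature forms in capitals. Mir219a-1 (ENSMUSG00000065555.1) lies at chr17:34024983-34025092 on the minus strand and overlaps an exon of the lncRNA gene Gm26940, 303 bp from Ring1 and 941 bp from H2-Ke6. Mir219a-2 (ENSMUSG00000065485.1) lies at chr2:29845631-29845727 on the minus strand between genes, 629 bp from Urm1. Mir338 (ENSMUSG00000065600.1) lies at chr11:120014765-120014862 on the minus strand, in an intron of Aatk, a kinase gene expressed in the nervous system, and in the same orientation.
Mir219a-1: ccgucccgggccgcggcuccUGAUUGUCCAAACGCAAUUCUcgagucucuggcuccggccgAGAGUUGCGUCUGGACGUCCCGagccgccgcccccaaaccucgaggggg
Mir219a-2: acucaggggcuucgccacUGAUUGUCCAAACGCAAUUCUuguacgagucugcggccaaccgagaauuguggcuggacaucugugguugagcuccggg
Mir338: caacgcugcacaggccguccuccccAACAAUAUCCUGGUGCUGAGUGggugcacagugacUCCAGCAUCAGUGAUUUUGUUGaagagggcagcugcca
The hairpins are 110, 97 and 98 bases long. The G and C content was 69.1% in Mir219a-1, 55.7% in Mir219a-2 and 56.1% in Mir338. In a global alignment Mir219a-1 and Mir219a-2 were identical in 72 of 114 columns (63.2%).

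The Mir219a hairpins share an exact stretch of 22 bases, which covers all of miR-219a-5p and the base before it. It spans bases 20 to 41 of Mir219a-1 and 18 to 39 of Mir219a-2. A read of 21 bases from the first base of miR-219a-5p is therefore the same for both genes. At 22 bases the templated reads part at their last base, shown in capitals.
Mir219a-1, 22 bases: ugauuguccaaacgcaauucuC
Mir219a-2, 22 bases: ugauuguccaaacgcaauucuU
Multi-mapped reads stand apart in a summary row of the tables, so reads that fit both hairpins were taken to be counted on neither gene. The counts of Mir219a-1 and Mir219a-2 thus stand for reads taken to have been placed on that hairpin only. For the reads of 22 bases shown, such a placement rests on the last base. The aligner was not given, and whether each read came from the gene it was counted on was not tested. The amount of miR-219a-5p itself was not measured by these counts.

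The opposite arms do tell the Mir219a genes apart, though RefSeq lists no mature form on that arm of Mir219a-2. The window of the Mir219a-2 hairpin most like miR-219a-1-3p (chr2:29845645-29845666) matched it at 15 of 22 positions, and the longest unbroken match was 6 bases. The lines show the differing bases in capitals.
miR-219a-1-3p: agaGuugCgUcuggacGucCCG
Mir219a-2, same arm: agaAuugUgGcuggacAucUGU
Counted from the 5′ end with Mir219a-1 first, the differences are G4A, C8U, U10G, G17A, C20U, C21G and G22U. The tables give reads per gene and do not separate arms.

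Over whole hairpins the shared part was small. Of windows of 21 bases, 2 of 90 in Mir219a-1 and 2 of 77 in Mir219a-2 were found in another annotated microRNA outside the locus, and 0 of 78 in Mir338. At 23 bases and above none of the windows of the 3 hairpins was shared. The number of windows of 21 bases found nowhere else was 88 for Mir219a-1 and 75 for Mir219a-2. The shared windows lie on miR-219a-5p and the base before it, so the share of windows is not a share of reads. This search covered annotated microRNAs and not the genome.

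**Figure D1:**
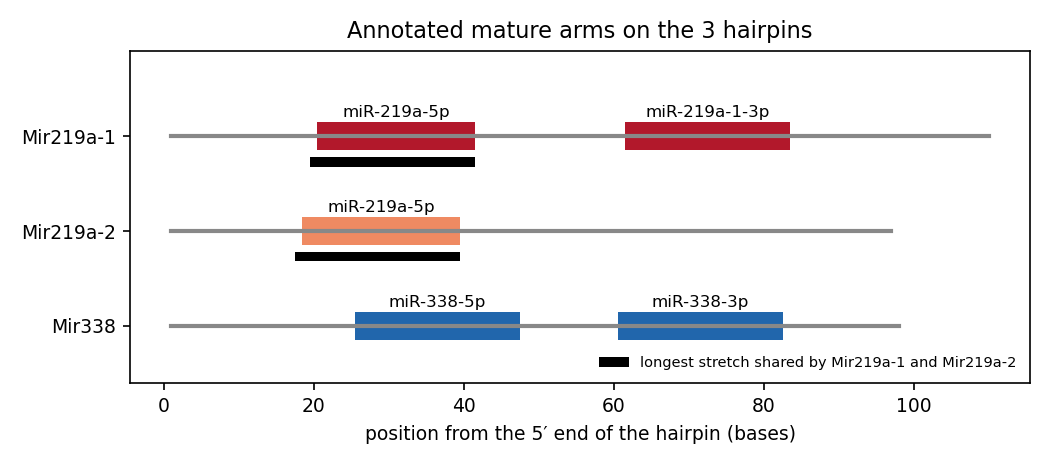
The 3 hairpins drawn to scale, with position in bases from the 5′ end on the horizontal axis, coloured boxes for annotated mature forms and black bars for the 22 bases that Mir219a-1 and Mir219a-2 share. The shared stretch covers miR-219a-5p in both hairpins, and Mir338 has no such stretch.

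The libraries held 10631040 reads in replicate 1 and 10452225 in replicate 2, of which 4117752 (38.7%) and 3908953 (37.4%) were counted on microRNA genes. Multi-mapped reads made up 40.6% and 43.9%. Levels below are CPM, the counts of a gene for every 1000000 counts on microRNA genes in that library. A gene at 0 counts may hold up to 3 within counting error, equal to 0.729 CPM for replicate 1 and 0.767 CPM for replicate 2. A mature microRNA is read whole, so CPM was not divided by length unless stated. Markers of neural cells, listed with earlier results of these data known, were detected for 8 of 10 measured genes, against 19.1% of all genes. So were 2 of 2 measured erythroid genes, 2 of 2 microglial and leukocyte genes and 1 of 3 muscle genes. Detection above the share of all genes was thus not particular to the neural list. The neural list held 2.54% ± 0.262 of gene counts (SD, n = 2), led by Mir92b (13430 ± 660 CPM). Markers of other cell types were present too. Endothelial Mir126a stood at 17435 ± 1970 CPM, above Mir92b. Microglial and leukocyte Mir155 and Mir223 stood at 163 ± 9.33 and 95.8 ± 9.16 CPM, and liver Mir122 at 56.0 ± 4.64 CPM. Erythroid Mir144 stood at 34.2 ± 10.9 CPM, and Mir451a at 123 CPM in replicate 1 and 34.3 CPM in replicate 2. Of the muscle genes Mir208b stood at 35.8 ± 2.91 CPM, while Mir1a-1 and Mir133a-1, which have copies, had 0 counts. Their part in the levels below was not tested.

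All 3 genes were detected at embryonic day 13.5, with detection set at 10 or more counts in each library. By that rule 19.1% of the genes in the tables were detected, 377 of 1973. Their counts summed to 3349 in replicate 1, a share of 0.0813% of gene counts with a 95% Wilson interval between 0.0786% and 0.0841%. In replicate 2 they summed to 2904, a share of 0.0743% with an interval between 0.0716% and 0.0770%. The mean share was 0.0778% ± 0.00498 (SD, n = 2). In bulk tissue, fewer cells of a type and less RNA per cell cannot be told apart, and which cells gave these reads was not measured.

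Mir219a-1 was the most abundant of the 3 genes in reads counted. It had 2420 counts in replicate 1, or 588 CPM (exact Poisson 95% interval 565 to 612), and 2009 counts in replicate 2, or 514 CPM (492 to 537). The level was 551 ± 52.1 CPM (SD, n = 2), with replicate 1 above replicate 2 and no overlap of their counting intervals in CPM.

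Mir338 followed, with 744 counts in replicate 1, or 181 CPM (168 to 194), and 714 counts in replicate 2, or 183 CPM (170 to 197). Its level was 182 ± 1.40 CPM (SD, n = 2), and the replicates lay well inside each other's counting interval. With no window of 18 to 25 bases shared with another annotated microRNA, the value of Mir338 does not rest on how reads with copies were treated within that set.

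Mir219a-2 was the lowest. It had 185 counts in replicate 1, or 44.9 CPM (38.7 to 51.9), and 181 counts in replicate 2, or 46.3 CPM (39.8 to 53.6). Its level was 45.6 ± 0.973 CPM (SD, n = 2), and the counting intervals of the replicates overlapped nearly in full. These levels stood far above the limit that a count of 0 allows.

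**Figure D2:**
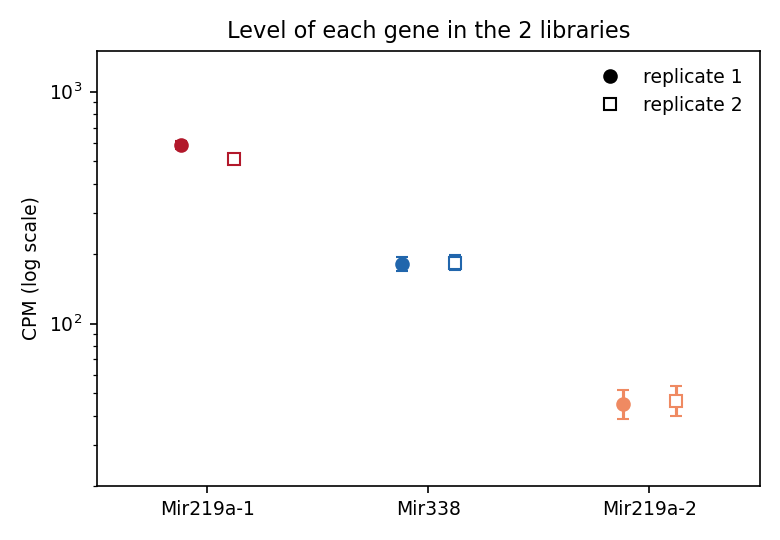
CPM on a log scale for each gene, with filled circles for replicate 1, open squares for replicate 2 and bars for exact Poisson 95% intervals of the counts. Mir219a-1 lies at 588 and 514 CPM, Mir338 at 181 and 183 CPM and Mir219a-2 at 44.9 and 46.3 CPM, with no overlap between genes.

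The order Mir219a-1, Mir338, Mir219a-2 was the same in both libraries, and each step was larger than the replicate spread. Mir219a-1 stood above its sister gene Mir219a-2 by 13.1-fold in replicate 1 (exact 95% interval 11.3 to 15.3) and 11.1-fold in replicate 2 (9.53 to 13.0), a mean of 12.1 ± 1.40 (SD, n = 2). Mir219a-1 stood above Mir338 by 3.25-fold in replicate 1 (2.99 to 3.54) and 2.81-fold in replicate 2 (2.58 to 3.07). Mir338 stood above Mir219a-2 by 4.02-fold (3.42 to 4.75) and 3.94-fold (3.35 to 4.67). Genes of 1 library are not replicates, and with 2 libraries no permutation test can pass the threshold, so these folds have no test.

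Per length of hairpin the order was the same, at 501 CPM per 100 bases for Mir219a-1, 185 for Mir338 and 47.0 for Mir219a-2. Mir219a-1 made up 70.7% ± 2.18 of the counts of the 3 genes, Mir338 23.4% ± 1.68 and Mir219a-2 5.88% ± 0.501 (SD, n = 2). The Mir219a genes summed to 3.50 times Mir338 in replicate 1 and 3.07 times in replicate 2, a mean of 3.28 ± 0.307. This sum leaves out reads that fit both Mir219a hairpins. How evenly the different microRNAs were captured into the libraries was not measured, so folds between genes compare reads and not molecules.

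Among all genes the 3 stood in the middle of the detected range. Mir219a-1 ranked 117 of 377 detected genes by mean CPM, Mir338 ranked 172 and Mir219a-2 ranked 246. Between Mir219a-1 and Mir338 lay 54 detected genes, and between Mir338 and Mir219a-2 lay 73. The median of the 3 genes was 182 CPM, against 137 CPM over the detected genes and 0 CPM over all 1973, of which 1253 had 0 counts in both libraries. The leading gene, Mir99a, stood at 195743 ± 1983 CPM, which was 355-fold above Mir219a-1.

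**Figure D3:**
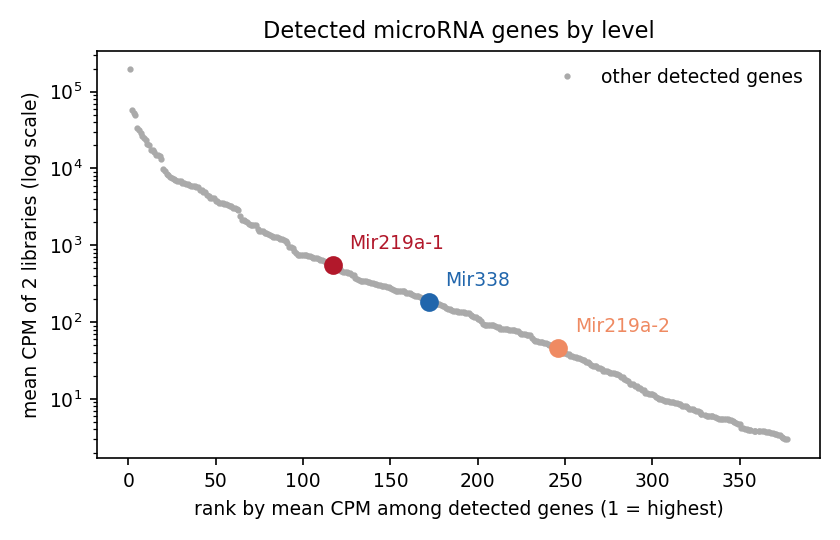
Mean CPM of the 2 libraries on a log scale against rank for the 377 detected genes, 1 point per gene. Mir219a-1, Mir338 and Mir219a-2 are coloured at ranks 117, 172 and 246, in the middle of a range that starts with Mir99a.

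The genes closest in level were found by the distance between log2 CPM values over the 2 libraries. Nearest to Mir219a-1 was Mir210, a hypoxia-induced microRNA, at 568 CPM in replicate 1 and 498 CPM in replicate 2 (distance 0.07). It was followed by Mir320 (distance 0.13) and Mir676 (0.14). Nearest to Mir338 was Mir505, at 179 and 178 CPM (distance 0.04), followed by Mir488 (0.11) and Mir672 (0.12). Nearest to Mir219a-2 was Mir145a, a smooth muscle and pericyte microRNA, at 48.8 and 49.6 CPM (distance 0.16), followed by Mir7j (0.18) and Mir1955 (0.18). Mir145a is also among the genes listed below as linked with the oligodendrocyte lineage. With 2 libraries this measure says that levels are alike and no more.

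The replicates were then set against each other for every gene by an exact binomial test, two-sided, on TMM library sizes, with p-values adjusted over 475 genes. It compares these libraries, not conditions, and covers counting error only. It called 38.9% of the genes tested at an adjusted p under 0.05, and 0 of the 3 genes described here (0 at an unadjusted p under 0.05). With DESeq2 size factors or library totals it called 1 of them, Mir219a-1, beside 38.9% and 41.1% of all genes tested.

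Mir219a-1 had a log2 ratio of replicate 1 over replicate 2 of 0.08 (95% interval -0.0012 to 0.17), with an exact binomial adjusted p of 0.115. Under the alternatives its adjusted p ran between 3.72e-05, with library totals, and 0.170, with all genes that had a count. The log2 ratio was 0.19 with library totals and 0.13 with DESeq2 size factors, so whether it passed depended on the scaling. Library totals moved every log2 ratio by 0.11 relative to TMM, which is more than the TMM ratio of Mir219a-1.

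Mir338 and Mir219a-2 lay on the other side of 0. The log2 ratio of Mir338 was -0.12 (-0.27 to 0.03), with an exact binomial adjusted p of 0.203. That of Mir219a-2 was -0.15 (-0.46 to 0.15), with an exact binomial adjusted p of 0.491. A larger absolute log2 ratio was seen in 286 of the 377 detected genes for Mir219a-1, in 247 for Mir338 and in 221 for Mir219a-2. The median absolute log2 ratio was 0.12 over the 3 genes and 0.21 over the detected genes.

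**Figure D4:**
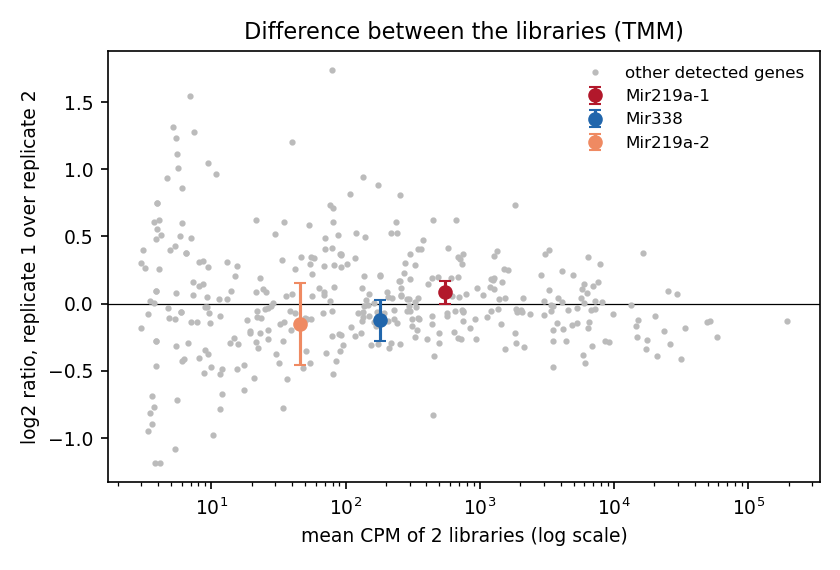
Log2 ratio of replicate 1 over replicate 2 after TMM against mean CPM on a log scale, 1 grey point per other detected gene, with exact 95% intervals for the coloured genes. The intervals of Mir219a-1, Mir338 and Mir219a-2 all reach 0, at ratios of 0.08, -0.12 and -0.15.

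Each hairpin has an annotated microRNA on the other strand of the same DNA. Mir219c lies opposite Mir219a-1, Mir219b opposite Mir219a-2 and Mir3065 opposite Mir338. The mature forms that face each other overlap by 20 or 21 bases, and those of the opposite strand are shown. Mir219b also has miR-219b-5p, which faces no annotated mature form and is left out.
miR-219c-5p, opposite miR-219a-1-3p: gGACGUCCagacgcaacucucg
miR-219c-3p, opposite miR-219a-5p of Mir219a-1: cGAGAAUUgcguuuggacaauc
miR-219b-3p, opposite miR-219a-5p of Mir219a-2: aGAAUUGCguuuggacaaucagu
miR-3065-5p, opposite miR-338-3p: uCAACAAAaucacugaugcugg
Capitals mark the seeds, which differ from those of the facing strand. None of the 3 partners has a row of its own in the tables, so the reads counted on the opposite strand are what was measured there. Mir219a-1 had 3 opposite-strand counts in replicate 1 and 9 in replicate 2, Mir219a-2 had 1 and 1, and Mir338 had 0 and 1. For Mir219a-1 in replicate 1 that was 0.124% of reads on either strand, with 95% Wilson bounds of 0.0421% and 0.363%. In replicate 2 it was 0.446%, with bounds of 0.235% and 0.845%. For Mir219a-2 the share was 0.538% in replicate 1 (bounds 0.0950% and 2.98%) and 0.549% in replicate 2 (bounds 0.0971% and 3.05%). For Mir338 it was 0% in replicate 1, with an upper bound of 0.514%, and 0.140% in replicate 2 (bounds 0.0247% and 0.788%). Whether these reads came from the facing microRNAs was not tested. Among the reads counted, the loci were thus read almost wholly from the strand of Mir219a-1, Mir219a-2 and Mir338. Opposite-strand reads within the 22 bases shared by the Mir219a hairpins would also fit both loci. They were taken to be counted at neither, so this share does not cover them.

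Other microRNAs that published work links with the oligodendrocyte lineage were mostly detected as well. Of 25 listed genes 24 were measured and 22 were detected, against 19.1% of all genes. The median level of the 24 was 275 CPM, against 137 CPM over the detected genes and 0 CPM over all genes. Copies exist for 13 of the 24, and reads that fit a copy too were taken to be left out. In both libraries 9 of the 24 lay above Mir219a-1 and 8 lay below Mir219a-2. The remaining 7 lay between. The list held 9.52% ± 0.267 of gene counts (SD, n = 2), led by Mir17 and Mir20a. It was drawn up with earlier results of these data known, and Mir9-2 and Mir9-3 stand on the neural list too.

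The leading members of the list were 4 genes of the Mir17 cluster, Mir23a and Mir125a. Mir17, which in mouse promotes expansion of oligodendrocyte precursors together with its cluster, stood at 48988 ± 625 CPM, or 88.9 times Mir219a-1. Its cluster neighbours were Mir20a at 20816 ± 2872 CPM, Mir18 at 6784 ± 197 CPM, Mir92-1 at 4899 ± 125 CPM, Mir19a at 92.9 ± 5.71 CPM and Mir19b-1 at 22.9 ± 1.20 CPM. Mir19a thus lay between Mir338 and Mir219a-2, and Mir19b-1 below Mir219a-2. Mir23a, which lowers lamin B1 and promotes oligodendrocyte differentiation in culture, stood at 5318 ± 94.1 CPM. Mir125a stood at 3829 ± 281 CPM. These genes are not particular to the lineage, and the cells they came from were not measured.

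Mir138-1 and Mir138-2, whose microRNA miR-138 was found together with miR-219 and miR-338 in differentiating oligodendrocytes, stood between Mir219a-1 and Mir338 by their means. Both were chosen for mention after their values were seen. Mir138-1 had 562 CPM in replicate 1 and 338 CPM in replicate 2 (450.3 ± 159 CPM). Mir138-2 had 295 CPM in replicate 1 and 180 CPM in replicate 2 (238 ± 81.6 CPM). In replicate 2 the level of Mir138-2 lay inside the counting interval of Mir338. Both were higher in replicate 1 past the exact binomial test and both have copies. The log2 ratio was 0.63 for Mir138-1 (adjusted p = 2.74e-36) and 0.61 for Mir138-2 (adjusted p = 1.79e-18). In the list as a whole 5 of 23 tested genes were higher and 6 lower in replicate 1 past the test, against 20.8% and 18.1% of all genes tested.

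**Figure D5:**
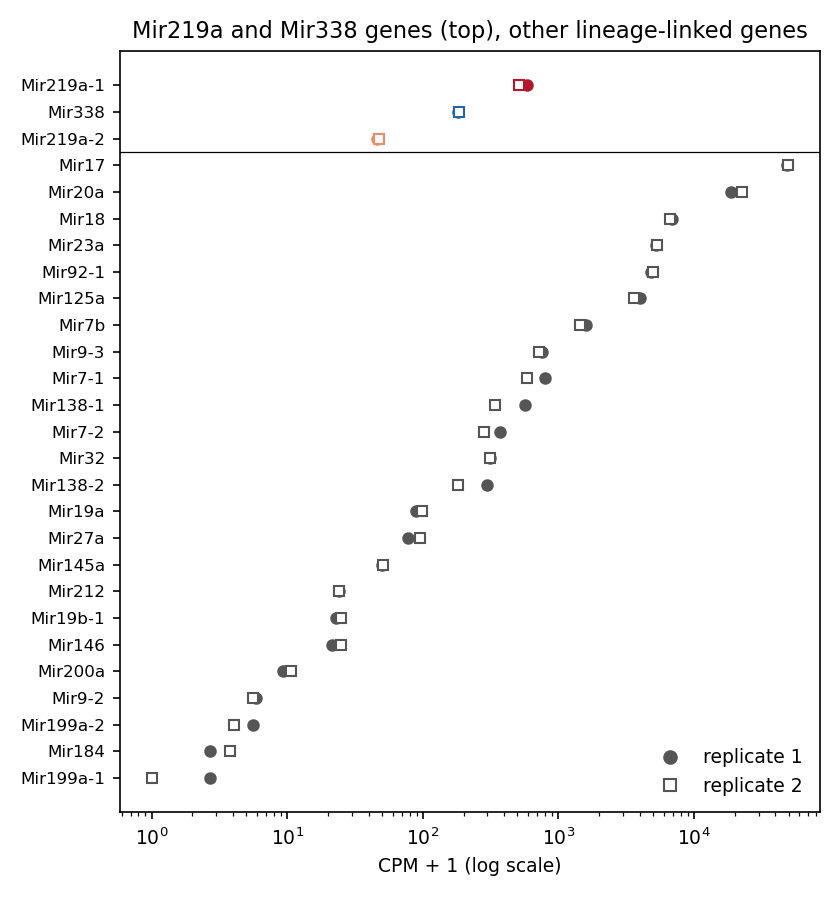
CPM + 1 on a log scale for Mir219a-1, Mir338 and Mir219a-2 (top 3 lines) and the 24 measured genes of the lineage list, with filled circles for replicate 1 and open squares for replicate 2, which cover the circles where values coincide. Mir17 leads at 48988 CPM, and 8 genes lie below Mir219a-2.

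Neural genes with copies spanned a wide range of levels. Mir9-3 stood at 738 ± 22.2 CPM, while Mir9-2, which codes for the same mature miR-9, had 20 counts in replicate 1 and 18 in replicate 2. The 3 genes of miR-124, which characterises neurons, had between 3 and 20 counts in either library. Mir128-1 and Mir128-2 lay nearer to each other, at 746 ± 174 and 575 ± 146 CPM. All of these have copies, as do Mir219a-1 and Mir219a-2, and 82 of the 377 detected genes. The part of copies in the distance between Mir219a-1 and Mir219a-2 was not tested.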

How the data were processed

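Small RNA of 2 forebrain libraries had been sequenced. The authors deposited counts as whole numbers for each gene and library, on mm10 with GENCODE M4, per the read-me texts. Aligner and counter were not given in the sources used here. The tables have 3 count columns (either strand, own strand, opposite strand) and 4 summary rows, which stayed out of library sizes and tests. These held 16.7% unmapped, 40.6% multi-mapped and 3.99% unassigned reads in replicate 1, and 15.0%, 43.9% and 3.71% in replicate 2. That multi-mapped reads count for no gene was inferred from these rows.

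Own-strand counts were used. Names came from GENCODE M21 on the same build (1894 of 1973 identifiers matched), and sequences from RefSeq (GRCm38.p6, all 3 genes matched). A copy is an exact stretch of 20 bases in another annotated microRNA outside the locus. CPM, exact binomial tests, Benjamini-Hochberg adjustment and intervals were computed with scipy 1.17.1, TMM library sizes with edgeR 4.0.16 and alignments with Biopython 1.88. The test was checked on simulated counts with counting error only, so the check does not cover other spread between libraries. Intervals cover counting error only, since PCR reads are not independent molecules.

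Named genes were the 3 genes, their antisense partners, the 3 nearest to each in level, the 6 leading genes of the lineage list, cell type markers and the leading gene of the tables. Mir138-1, Mir138-2, Mir19a and Mir19b-1 were added after their values were seen. Genes and lists were chosen with earlier results of these data known. Alternatives were library totals, DESeq2 1.42.0 size factors, other count minimums, either-strand counts, all reads as denominator, levels per base, genes without copies and leaving out each replicate.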

Additional observations from a re-analysis of the deposited data

Results flagged for a closer look

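Reads on the strand opposite to Mir219a-1, outside the measurement used above, numbered 9 in replicate 2 and 3 in replicate 1. No control samples exist to set them against. Over all genes, 2.16% of reads on either strand lay on the opposite strand in replicate 1 and 1.91% in replicate 2. For Mir219a-1 these shares were 0.124% and 0.446%. Of 293 genes with at least 50 counts on their own strand in each library, 265 had 0 opposite-strand counts in both, and 9 had a mean opposite-strand share above that of Mir219a-1. Mir219a-2, with 1 such count in each library, was among those 9, and 6 genes lay above it. Mir219c is annotated at this place on the other strand, and whether the reads came from it was not tested.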

How the results depend on the processing

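Of 64 values recomputed under alternatives, 46 kept their size or call, 16 moved, 2 newly passed the test and 0 reversed. The 2 were the log2 ratio of Mir219a-1, at 0.19 with library totals and 0.13 with DESeq2 size factors. So 1 of the 3 genes passed under either, beside 41.1% and 38.9% of all genes tested. Relative to all reads, the levels were 209.9 for every 1000000 reads for Mir219a-1, 69.1 for Mir338 and 17.4 for Mir219a-2, and the summed share was 0.0296%, since the denominator is larger. With counts on either strand the ranks were 124, 180 and 257 in the same order, and Mir338 stood at 178 CPM. Among genes without a copy plus the 3 genes, the ranks were 95, 133 and 192. Per base, the fold of Mir219a-1 was 10.7 over Mir219a-2 and 2.70 over Mir338. Leaving out a replicate gave Mir219a-2 a rank of 242 without replicate 1 and 247 without replicate 2, and left no ratio between libraries to compute. No paired analysis was possible because there is 1 group. Depth limits the ratio of Mir219a-2 most, which rests on under 200 counts in each library.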
